A study of Mus musculus with 4 samples.

Results

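The 10 imprinted genes described here are Plagl1, Igf2, H19, Dlk1, Meg3, Rian, Cdkn1c, Peg3, Ndn and Grb10. They were taken by gene symbol from the 32285 genes of the count matrices, and all 10 had counts in each of the 4 libraries. The study profiled tdTomato-positive forebrain cells of C57BL/6 mice at postnatal day 5 by droplet single-cell RNA sequencing. Control mice were NestinCreERT2/tdTomato/Chd8+/+ and mutant mice were NestinCreERT2/tdTomato/Chd8+/F, so that both groups carried the Cre and the reporter and received tamoxifen before birth. Chd8 encodes a chromatin remodeler, and a single floxed copy of it was deleted in the mutant. Each genotype had 2 libraries, and each library pooled sorted cells of 3 mice, so that the spread between mice was not measured. Genotype p-values below refer to the spread between libraries. Those of comparisons between classes refer to the spread left among class sums after the terms of the model, such as class and library. Differences among the vascular classes, or among the neural classes, do not enter that spread. The Nestin promoter that drives the Cre is best known from neural progenitors, and the labels call the sorted cells neuronal.

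Genomic imprinting silences 1 parental copy of a gene through marks laid down in the germ line, so that the RNA comes from the copy inherited from the other parent. Many imprinted genes act on fetal and early postnatal growth, among them a growth factor, its signalling adaptors and cell cycle inhibitors, and several imprinted loci keep protein-coding genes and long noncoding RNAs on opposite parental copies. Members usually listed as paternally expressed are Igf2, Dlk1, Plagl1, Peg3 and Ndn, and as maternally expressed H19, Meg3, Rian and Cdkn1c. Grb10 uses different copies in neurons and in other tissues. Such assignments can differ between tissues, and which copy was used in the cells of this study was not measured. The counts do not separate the parental copies, so all values are sums over both.

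Positions are those of GENCODE vM21 on GRCm38. The H19 and Igf2 genes are neighbours on chromosome 7, with H19 at chr7:142575529-142578143 and Igf2 at chr7:142650766-142666816, both on the minus strand and 72.6 kb apart. Cdkn1c lies on the same chromosome at chr7:143458339-143461050, Ndn at chr7:62346569-62350262 and Peg3 at chr7:6703892-6730431. Dlk1 (chr12:109452823-109463336), Meg3 (chr12:109541001-109571726) and Rian (chr12:109603940-109661716) follow each other on the plus strand of chromosome 12, with gaps of 77.7 kb and 32.2 kb. Plagl1 lies at chr10:13060504-13131694 and Grb10 at chr11:11930508-12038683. Igf2, Cdkn1c and Ndn each overlap an annotated gene on the other strand.

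Of the 10 genes, 4 contain annotated microRNAs, with 13 mature sequences and 13 different seeds between them. Igf2 holds miR-483 in an intron, H19 holds miR-675 in an exon, Meg3 holds miR-770 and miR-1906 in exons, and Rian holds miR-341, miR-370 and miR-1188 in introns. Mature sequences from RefSeq on GRCm38.p6 are printed for each host, because the levels of these hosts set the cell classes apart in the results below. The seed, bases 2 to 8, is in capitals. The libraries counted the polyadenylated host RNAs and not the microRNAs.
mmu-miR-483-5p: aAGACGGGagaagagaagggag
mmu-miR-483-3p: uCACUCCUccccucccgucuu
mmu-miR-675-5p: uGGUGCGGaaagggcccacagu
mmu-miR-675-3p: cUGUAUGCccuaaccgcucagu
mmu-miR-770-5p: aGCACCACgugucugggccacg
mmu-miR-370-3p: gCCUGCUGggguggaaccuggu

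The promoter windows of Meg3 and Rian are shown because the levels of both RNAs followed each other across the cell classes (below). Each window runs from 250 bases before the RefSeq start to 50 bases after it on GRCm38.p6, on the plus strand. The capitals mark TGACGTCA, searched on both strands, and the run that holds TATATAAA together with its overlapping reverse complement.
Meg3, chr12:109540746-109541045: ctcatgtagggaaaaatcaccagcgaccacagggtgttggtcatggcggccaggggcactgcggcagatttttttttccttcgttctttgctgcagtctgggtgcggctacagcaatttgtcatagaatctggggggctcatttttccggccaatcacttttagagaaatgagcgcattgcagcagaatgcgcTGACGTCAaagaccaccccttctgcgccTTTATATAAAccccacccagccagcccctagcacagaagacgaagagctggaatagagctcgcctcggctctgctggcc
Rian, chr12:109603695-109603994: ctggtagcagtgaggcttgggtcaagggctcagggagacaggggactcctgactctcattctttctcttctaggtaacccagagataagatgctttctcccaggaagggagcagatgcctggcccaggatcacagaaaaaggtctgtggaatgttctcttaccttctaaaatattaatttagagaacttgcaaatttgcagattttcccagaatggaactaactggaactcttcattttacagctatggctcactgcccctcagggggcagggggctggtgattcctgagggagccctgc
The printed Meg3 window held 13 CpG dinucleotides and the Rian window 0, against a median of 7 over 32851 windows of the same length. TGACGTCA occurred in 1.79% of those windows and TATATAAA in 1.40%. Among the 13 windows found for 8 of the 10 genes, TGACGTCA also occurred in 1 of Peg3, and neither motif was in the Rian window. A second Meg3 window, chr12:109545148-109545447, held 1 CpG and neither motif.

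After the study's limits on UMIs (unique molecular identifiers, 1 per captured RNA molecule), genes and mitochondrial share, 17623 of 27742 barcodes were kept, with a median of 11497 to 11837.5 UMIs per cell in each library. Replicate 2 kept 48.7% and 45.1% of its barcodes and replicate 1 kept 79.1% and 79.3%. Replicates also differed in the software version recorded in the files and in Xist, at 0.149 and 0.153 CPM in replicate 1 against 1633 and 1749 CPM in replicate 2. Xist is transcribed from the inactive X chromosome of female cells. The labels give no sex, and the study states that male mice were used for single-cell sequencing, with which the Xist level of replicate 2 is at odds. In every shift between replicates the sex of the pooled mice, the software version and the replicate therefore cannot be told apart. Kept libraries shared 2 to 15 barcodes per pair. The cells were clustered without the imprinted genes and named from marker genes as astrocyte-like, ependymal-like, inhibitory neuron-like, excitatory precursor-like, excitatory neuron-like, oligodendrocyte precursor (OPC)-like, committed OPC-like, microglia-like, endothelial-like, pericyte-like and fibroblast-like. These 11 classes are called below by the name of the type. The fibroblast class held 103 cells, the pericyte class 570 and the endothelial class 166, and in them 8 of 8, 9 of 10 and 8 of 8 of their markers had their highest mean level, so that the sorted cells were not all neuronal. Chd8 stood at 61.7 and 89.8 CPM in the control and 68.7 and 94.9 CPM in the mutant libraries, and 3′ counts do not report on the deleted part.

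Levels are given in CPM, a gene's share of the UMIs summed over the cells of a class in a library, scaled to a total of 1000000 UMIs. Values by library are in the order control replicate 1, mutant replicate 1, control replicate 2 and mutant replicate 2 (control 1, mutant 1, control 2 and mutant 2).

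The 10 imprinted genes were not spread evenly over the cells of the P5 forebrain. Igf2, H19, Cdkn1c, Peg3, Grb10 and Plagl1 had their highest mean level in the fibroblast class, Dlk1 and Rian in pericytes, Meg3 in inhibitory neurons and Ndn in OPCs. Thus 8 of 10 peaked in a vascular or meningeal class, where 22.4% of the 15476 genes tested across classes did. Of 38 other imprinted genes tested, 12 did. Rian was a near tie, 1.16-fold higher in pericytes than in inhibitory neurons and with overlapping libraries. With CPM averaged per cell Rian peaked in inhibitory neurons, which left 7 of 10. The fibroblast class alone was the highest class of 7.49% of genes. Microglia had the lowest mean of Plagl1, Cdkn1c, Peg3, Ndn and Grb10.

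**Figure D1:**
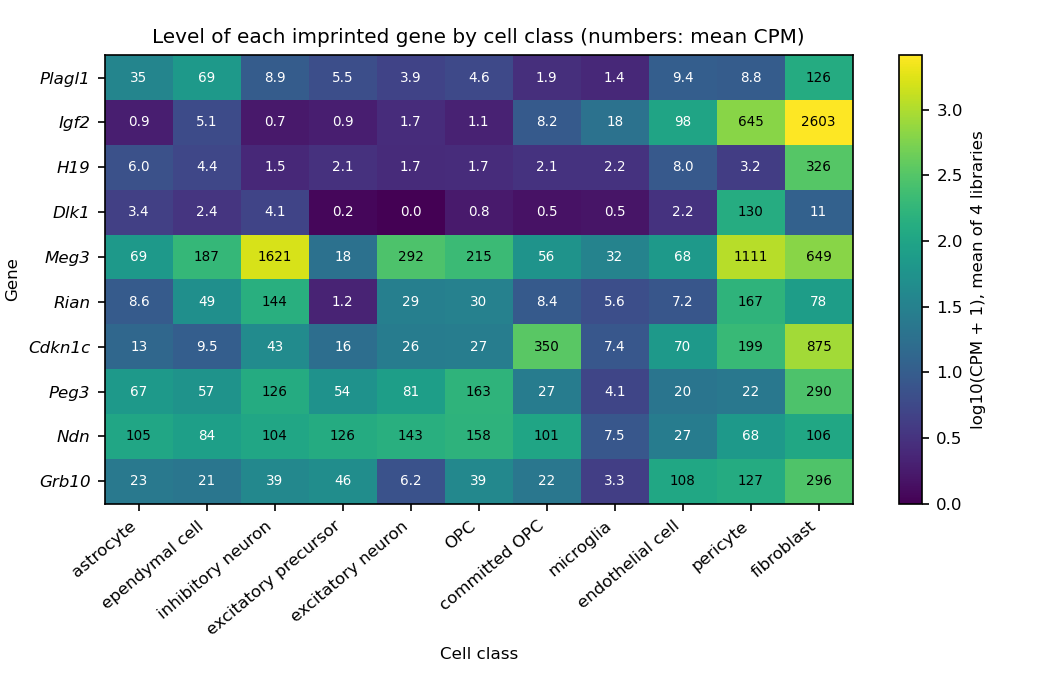
Mean level of each of the 10 genes (y axis) in each of the 11 cell classes (x axis), with the colour on a log10(CPM + 1) scale and the mean CPM of 4 libraries printed in each square. The fibroblast column holds the highest square of 6 genes, and the inhibitory neuron column that of Meg3 at 1621 CPM.

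Igf2, the insulin-like growth factor 2 gene, was counted mostly in pericytes and fibroblasts. In fibroblasts it stood at 1715, 986, 5950.5 and 1760.4 CPM, a mean of 2603 ± 2260 (SD, n = 4), and in pericytes at 234, 387, 1439.7 and 521 CPM, a mean of 645 ± 542 (SD, n = 4). The 2 classes overlapped, because control 2 was the highest library in both and its pericytes exceeded the fibroblasts of mutant 1. Together pericytes with 57.0% and fibroblasts with 36.7% gave most of the 8640 Igf2 UMIs, although they made up 3.23% and 0.584% of the cells.

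At single-cell level 442 of 570 pericytes and 94 of 103 fibroblasts held an Igf2 UMI. After each cell was thinned to 2000 UMIs, 47.5% of pericytes and 77.4% of fibroblasts did, against 0.200% of inhibitory neurons, with median depths of 9814, 13400 and 7025 UMIs before thinning. The pericytes formed 2 clusters. The cluster led by Acta2, Rgs5 and Tagln, genes of contractile smooth muscle and mural cells, held 207 cells with Igf2 at 177, 406, 389.6 and 125 CPM. The cluster led by Rgs5, Vtn and Higd1b held 363 cells, of which 142 came from control 2 and 210 from mutant 2, and there Igf2 stood at 1906 and 634 CPM in those libraries. Fibroblast markers summed to 2049 to 3583 CPM in the pericytes and 9254 to 13870 CPM in the fibroblasts. Col1a1, the fibrillar collagen gene that marks fibroblasts, had 23 UMIs in pericytes beside 4921 of Igf2, and 3924 UMIs in fibroblasts beside 3171 of Igf2.

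Endothelial cells gave a less even picture. Igf2 stood there at 116.1, 2.08, 243 and 29.0 CPM, and its UMIs came from 1 of 10, 1 of 62, 10 of 26 and 3 of 68 cells. Pericyte markers summed to 160, 196, 3089 and 492 CPM in the same endothelial sums, against 21109 to 23516 CPM in the pericytes, so control 2 was highest in both. The part of pericyte RNA in the endothelial level was not tested. Among neural classes the mean was highest in committed OPCs at 8.22 CPM, where 26 of 27 UMIs lay in 1 cell of control 2, followed by ependymal cells at 4.85, 3.61, 7.38 and 4.56 CPM. The remaining neural classes averaged 0.709 to 1.72 CPM.

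H19, the noncoding RNA next to Igf2, was a fibroblast RNA in these libraries. It stood at 293, 412, 214 and 384 CPM in fibroblasts, with a mean of 326 ± 90.3 (SD, n = 4). No other class reached that range, and endothelial cells came next at 7.97 CPM, a 40.9-fold lower mean. In control 2, however, all 45 fibroblast UMIs of H19 lay in 1 of 18 cells, while 20 of 32, 14 of 25 and 15 of 28 fibroblasts held the RNA in the other libraries. Pericytes separated H19 from its neighbour. They held 24 UMIs of H19 beside the 4921 of Igf2, or 0.488 H19 counts per 100 of Igf2, where fibroblasts held 15.9 per 100. A low level of H19 was also found in astrocytes, at 3.63, 3.82, 8.68 and 7.84 CPM, and since astrocytes were 35.3% of the cells this made up 39.2% of all H19 UMIs. For 100 counts of Col1a1 the astrocytes held 360.3 of H19 and the fibroblasts 12.8.

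Dlk1, which encodes a transmembrane relative of the Notch ligands, was highest in the pericyte class. It stood at 141, 110.9, 117 and 152 CPM there (mean 130.2 ± 19.5, SD, n = 4), and at 15.2, 4.71, 4.75 and 17.7 CPM in fibroblasts. The pericyte libraries all lay above every other class, 12.3-fold over fibroblasts on the means. Dlk1 was found in 254 of 570 pericytes, and after thinning in 18.3% of them against 0.0718% of microglia. Its level was 173 CPM in the cluster led by Acta2, with genes of contractile cells, and 109 CPM in the cluster led by Vtn and Higd1b. The Acta2 cluster made up 91.4%, 90.2%, 26.8% and 18.9% of the pericyte class by library. Excitatory neurons held 0 Dlk1 UMIs in 944 cells, which allows a share of up to 0.318% of cells. That limit covers counting error only, and it bounds the cells with a Dlk1 UMI, not the cells that express the gene.

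Cdkn1c encodes an inhibitor of cyclin-dependent kinases that holds cells out of the cycle. Its fibroblast level was 1114, 885, 418 and 1084 CPM, with a mean of 875 ± 322 (SD, n = 4). Committed OPCs followed with 263, 198, 483 and 456 CPM (mean 349.7 ± 141, SD, n = 4), and control 2 of the committed OPCs exceeded control 2 of the fibroblasts. Pericytes had 294, 150.1, 176 and 176 CPM, and endothelial cells 69.7 CPM on average. OPCs, the cells before commitment, had 22.8 to 31.3 CPM, so every committed OPC library lay above every OPC library. A finer clustering gave a class of 317 committed OPCs at 309.6 CPM and one of 283 oligodendrocytes at 377 CPM, both far above the 25.5 CPM of OPCs. These finer classes held cells from outside the 554 committed OPCs as well. After thinning, 41.4% of committed OPCs and 60.6% of fibroblasts held a Cdkn1c UMI, against 1.06% of microglia at a median depth of 10716.5 UMIs before thinning.

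**Figure D2:**
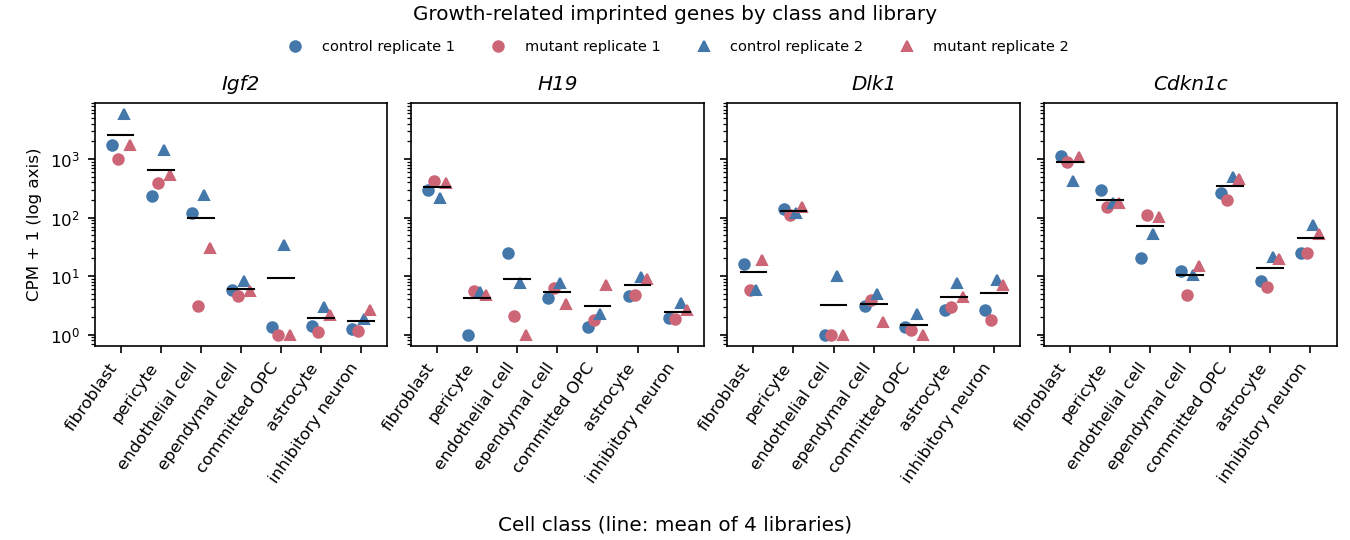
Igf2, H19, Dlk1 and Cdkn1c in 7 cell classes (x axis), as CPM + 1 on a log axis, with 1 point per library and a line at the mean of the 4 libraries. Igf2 steps down from fibroblasts to pericytes and endothelial cells, H19 stands out in fibroblasts at 326 CPM, Dlk1 in pericytes at 130.2 CPM, and Cdkn1c is also high in committed OPCs.

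Grb10 encodes an adaptor that binds the insulin and insulin-like growth factor receptors and dampens their signal. It stood at 365, 419, 166 and 233 CPM in fibroblasts (mean 296 ± 116, SD, n = 4), and every fibroblast library lay above every pericyte library (mean 126.9 CPM). Pericytes (104.3 to 144 CPM) and endothelial cells (99.6 to 123 CPM) overlapped. Endothelial cells stood above the highest neural class, excitatory precursors at 45.6 CPM, without overlap, and excitatory neurons were lowest among neural classes at 6.21 CPM.

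Plagl1, a zinc finger transcription factor gene, was highest in fibroblasts, ependymal cells and astrocytes. Fibroblasts had 119.8, 195, 38.0 and 151 CPM, ependymal cells 71.1, 82.8, 56.8 and 64.5 CPM, and astrocytes 50.8, 43.7, 23.2 and 21.0 CPM. Fibroblasts overlapped with ependymal cells, and ependymal cells stood above astrocytes without overlap. Within astrocytes 1 cluster of 951 cells, led by Slco1c1, Aldoc and Clu with Gfap among its first 10 genes, held Plagl1 at 223, 232, 146 and 119 CPM. Astrocytes, 35.3% of the cells, gave 61.7% of the 5662 Plagl1 UMIs. In astrocytes replicate 2 was below replicate 1, by -1.10 in the control and -1.02 in the mutant on the log2(CPM + 1) scale. The astrocytes of the replicates lay largely in different clusters, of which 1 held 47.0% and 50.6% of them in replicate 1 and 0.307% and 0.0773% in replicate 2, and another 1.91% and 3.002% against 47.2% and 49.5%. The cluster high in Plagl1 held 20.1% and 16.7% against 12.4% and 9.27%. The part of this make-up in the shift was not tested.

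Peg3 and Ndn were found in all neural classes, as were other members such as Meg3 (below). Peg3, another zinc finger gene, stood at 300.5, 139, 475 and 248 CPM in fibroblasts and at 105, 122, 224 and 203 CPM in OPCs, and the 2 classes overlapped. Its pericyte and endothelial means were only 22.3 and 20.1 CPM. Replicate 2 was higher than replicate 1 in astrocytes, by 0.93 in the control and 0.95 in the mutant (log2), larger than any genotype difference of Peg3 there. The astrocyte clusters differed between the replicates as given for Plagl1, and within the cluster led by Slco1c1 Peg3 stood at 81.8, 59.0, 233 and 158 CPM. Ndn encodes necdin, a protein of postmitotic neurons that restrains the cell cycle. It was most even over the neural classes, from 83.6 CPM in ependymal cells to 158 CPM in OPCs (137, 122, 162 and 212 CPM), and neighbouring classes in that order overlapped. Endothelial cells at 26.5 CPM and microglia at 7.50 CPM lay below all neural classes.

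Meg3 and Rian are noncoding RNAs of the maternal copy of the Dlk1 locus, and Rian is a host of small nucleolar RNAs. Inhibitory neurons had 1056, 917, 1768 and 2743 CPM of Meg3 (mean 1621 ± 836, SD, n = 4) and pericytes 677, 835, 1095 and 1838 CPM (mean 1111 ± 515, SD, n = 4). The 2 classes overlapped, although inhibitory neurons were higher in each library. Fibroblasts had 770.2, 181, 845 and 800.5 CPM, of which mutant 1 was far below the others. Excitatory neurons averaged 292 CPM, OPCs 215 CPM, ependymal cells 187 CPM and astrocytes 69.5 CPM. After thinning, 75.6% of pericytes and 69.8% of inhibitory neurons held Meg3 against 4.72% of microglia.

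Rian stood at 136, 139, 188 and 205 CPM in pericytes and 107, 102, 171 and 195 CPM in inhibitory neurons. Across the 11 classes the mean levels of Meg3 and Rian, on a log2(CPM + 1) scale, had a Pearson correlation of 0.98, and of 0.96 to 0.97 in each library. This is a description over 11 classes that share their libraries and clustering. The ratio of both RNAs was not constant: 27.6 Rian counts per 100 of Meg3 were found in ependymal cells, 13.5 in pericytes and 9.83 in inhibitory neurons. Dlk1, the protein-coding gene of the same locus, followed less closely, with 9.75 counts per 100 of Meg3 in pericytes, 0.180 in inhibitory neurons and 0 in excitatory neurons. Its correlation with Meg3 over the classes was 0.64.

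**Figure D3:**
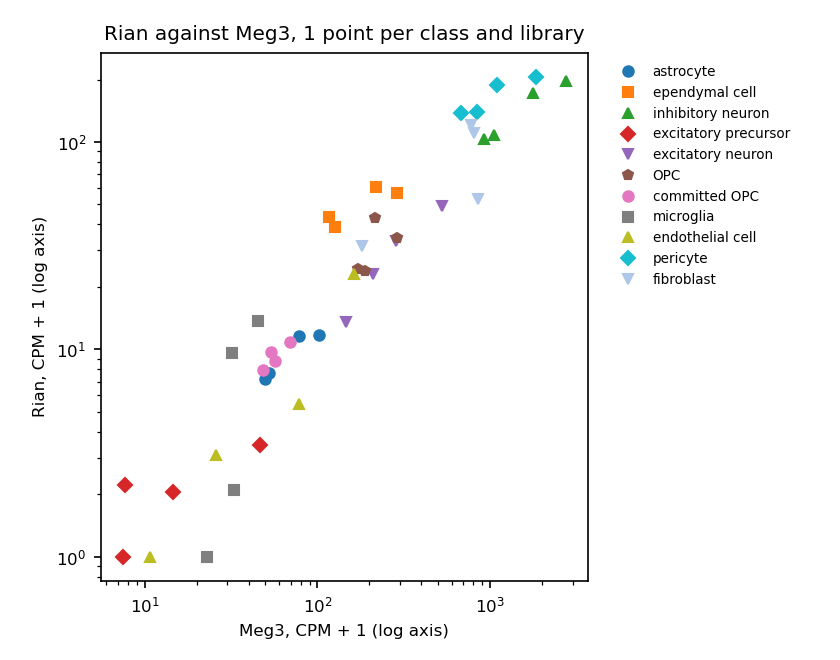
Rian (y axis) against Meg3 (x axis), both as CPM + 1 on log axes, with 1 point for each class in each library. Pericytes and inhibitory neurons lie at the upper right, excitatory precursors at the lower left, and ependymal cells lie above the other classes of similar Meg3 level.

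The Meg3 level of neurons differed between clusters of the same class. Within inhibitory neurons the dividing cluster had 152 CPM over all its cells, and the clusters led by Stmn2, Tubb3 and Gad2 or by Adarb2 and Erbb4 ran from 457 to 3301 CPM. The cluster at 3138 CPM came from replicate 2 alone and made up 49.9% and 62.4% of the inhibitory neurons of control 2 and mutant 2. Within the excitatory lineage, precursors (led by Tac2 and Eomes) had 16.1 CPM, the Neurod1 and Calb2 cluster 69.2 CPM and the Rbfox1 cluster 1121 CPM. The last of these held 190, 81, 13 and 12 of the excitatory neurons, which was 45.2%, 28.4%, 11.5% and 9.52% of the class.

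Astrocytes, inhibitory neurons and OPCs each held dividing cells, recognised as clusters by Mki67 and Top2a, with 1056, 609 and 617 cells. The excitatory precursor class as a whole was also a dividing cluster, with Mki67 in 52.3% and Top2a in 44.8% of cells. It therefore had no other cells to compare, and class and division cannot be told apart there. In astrocytes Meg3 stood at 13.4, 25.04, 17.6 and 23.7 CPM in dividing cells and 60.5, 55.7, 100.6 and 126 CPM in the other cells. Dividing cells were lower in 4 of 4 libraries and the groups did not overlap, as was the case for 14.6% of genes in astrocytes. Inhibitory neurons showed the same order with 172 against 2273 CPM on the means, again without overlap (12.5% of genes). In OPCs the means were 149.8 and 247 CPM, lower in 4 of 4 libraries but with overlap. Rian, the neighbour of Meg3, was at 27.3 CPM in dividing and 197 CPM in other inhibitory neurons, also without overlap, and at 2.85 against 10.4 CPM in astrocytes.

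Grb10 ran the other way. Dividing astrocytes had 65.4, 58.1, 33.0 and 28.4 CPM and other astrocytes 15.8, 18.99, 15.4 and 14.3 CPM. Dividing inhibitory neurons averaged 76.7 CPM and the others 21.5 CPM. Both sets were without overlap, as were 19.2% of genes in astrocytes and 14.2% in inhibitory neurons in that direction, and OPCs showed no such gap (39.9 and 38.4 CPM). Cdkn1c was higher in dividing inhibitory neurons in 4 of 4 libraries, at 65.0 against 33.5 CPM on the means, but with overlap. Its dividing and other means were 28.0 and 26.7 CPM in OPCs and 14.5 and 12.7 CPM in astrocytes. H19, at low levels, was higher in dividing cells in 4 of 4 libraries of each class, such as 10.4 against 4.61 CPM in astrocytes. Clusters were drawn on cell cycle genes among others, so these values are a description and no test was made.

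**Figure D4:**
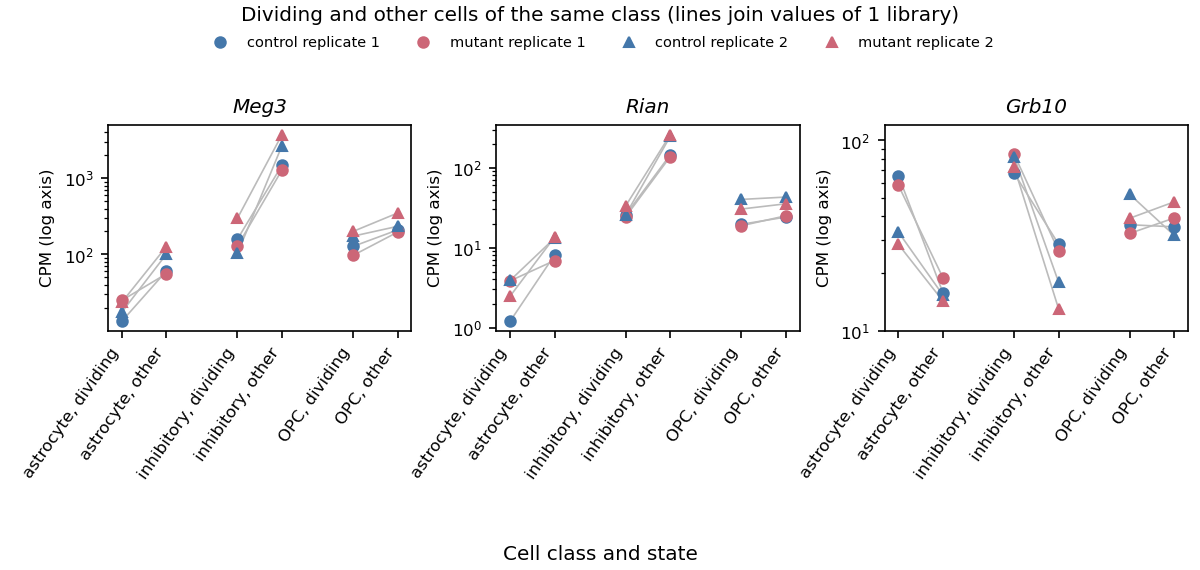
Meg3, Rian and Grb10 in dividing and other cells of astrocytes, inhibitory neurons and OPCs (x axis), as CPM on log axes, with 1 point per library and lines joining the values of 1 library. Meg3 and Rian climb from dividing to other cells in every library, and Grb10 drops in astrocytes and inhibitory neurons but not in OPCs.

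The vascular and meningeal classes (endothelial, pericyte, fibroblast) were compared with the 7 neural classes in 1 model over all class sums with the library as a block. Of the 15476 genes tested, 26.2% were called higher and 38.9% lower in the vascular classes at an adjusted p under 0.05. Of the 10 members 8 were called higher, with a median log2 difference of 2.06 over the 10 against -0.20 over all genes. Igf2 had the largest difference, 7.95 (SE 0.28, adjusted p = 3.63e-24). SE here and below is the size of the edgeR log2 difference divided by the square root of its F statistic. Dlk1 (3.48, SE 0.71), Cdkn1c (3.14, SE 0.19), Grb10 (2.80, SE 0.15) and H19 (2.77, SE 0.48) came next. Meg3 and Rian had 1.34 (SE 0.21) and 1.33 (SE 0.30), and Plagl1 1.30 (SE 0.31, adjusted p = 0.000343). The endothelial class did not share the high levels of Dlk1, Meg3 and Rian, with means of 2.21, 68.3 and 7.17 CPM. For all of these genes the inhibitory neuron, ependymal and astrocyte means were higher, and the excitatory precursor mean was lower. The differences of these genes therefore do not describe each vascular class.

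The other 2 members were called lower in the vascular classes, Ndn with -0.98 (SE 0.07, adjusted p = 1.60e-15) and Peg3 with -0.46 (SE 0.12, adjusted p = 0.00101), although Peg3 had its highest single class among fibroblasts. With at least 20 cells required per sum, endothelial cells (10 in control 1) and fibroblasts (18 in control 2) dropped out. Pericytes alone then stood for the vascular classes. The Plagl1 difference was -0.39 in that setting, and H19 (0.54) was no longer called. Mean Plagl1 was 126 CPM in fibroblasts and 8.85 CPM in pericytes. Without control 2 the Dlk1 difference (2.88) was not called. The Peg3 difference became 0.19 when the cells with the highest doublet scores were removed. That setting compared 10 classes, without endothelial cells. At a finer clustering (-0.27) or without the library block (-0.42) the Peg3 difference was not called. Classes of 1 library are not independent samples. The p-values refer to the spread left among class sums of 4 libraries after the class and library terms, not to how far the classes of a group differ.

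Other imprinted genes were called about as often as all genes. Of 48 listed, 38 passed the filter on low counts, and 9 were called higher, 17 lower and 12 not called, where 26.2% and 38.9% of all genes were higher and lower. Their median was -0.24 against -0.20 over all genes. Nnat, a small membrane protein of developing brain, was highest in ependymal cells at 1835 CPM (log2 difference -2.71). Snrpn, a splicing factor gene of the Prader-Willi region, peaked in inhibitory neurons at 217 CPM (-2.42), and Nap1l5 in OPCs at 299.9 CPM (-2.72). Airn, the antisense RNA of the Igf2r locus, peaked in pericytes at 234, 469, 71.0 and 80.3 CPM (2.29), and Gnas, a G protein subunit gene, in fibroblasts at 1645 CPM (0.67). Kcnq1ot1, the noncoding RNA of the domain that holds Cdkn1c, peaked in committed OPCs at 358 CPM, where Cdkn1c had its highest neural level. Ube3a and Ppp1r9a both peaked in excitatory neurons, at 268 CPM (-0.25) and 196 CPM (-1.87).

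Genes of the insulin-like growth factor pathway were mostly higher in the vascular classes. All 14 listed were tested, 9 were called higher, 3 lower and 2 not called, where 26.2% and 38.9% of all genes were higher and lower. Their median was 0.97 against -0.20 over all genes. Igfbp7, a secreted binding protein, was a pericyte gene at 2729 CPM (log2 difference 7.78), Igfbp2 peaked in fibroblasts at 3472 CPM (1.43), and the receptor gene Igf1r in endothelial cells at 675 CPM (0.52). Of 9 factors that maintain imprints, 8 were tested, 0 were higher, 6 lower and 2 not called in this edgeR fit. Their median was -0.41, beside the same shares and median of all genes. Ctcf, the insulator protein gene, and Trim28, a corepressor gene, both peaked in excitatory precursors, at 205 and 144 CPM. Dnmt3a peaked in fibroblasts at 113 CPM (log2 difference 0.15) and was not called. Members and lists were chosen with results of these data known, so these counts are descriptions.

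The genes most like each member in log2 level over the 11 classes were ranked by Pearson correlation. At least 50 CPM in a class was reached by 8324 genes, and members among them were left out of the ranking. Meg3 and Rian correlated more closely with each other (0.98) than with the genes named for them here. Igf2 was nearest to Vtn (r = 0.98), H19 to Col1a1 (0.97) and Dlk1 to Tagln (0.93), the last a gene of contractile cells. Meg3 was nearest to Runx1t1 (0.91), Cdkn1c to Nsmce3 (0.91), Grb10 to Rell1 (0.91), Peg3 to Glg1 (0.93), Ndn to Fam135a (0.97), Plagl1 to Serpinb1a (0.95) and Rian to Rarb (0.85). These r values are on means of the 4 libraries. In single libraries r ran from 0.83 to 0.97 for Igf2, 0.85 to 0.95 for H19 and 0.78 to 0.96 for Dlk1. For Meg3 it was 0.83 to 0.94, for Cdkn1c 0.72 to 0.95, for Grb10 0.70 to 0.90 and for Peg3 0.79 to 0.91. Ndn had 0.80 to 0.93, Plagl1 0.73 to 0.83 and Rian 0.66 to 0.92. The correlations over 11 points that share libraries carry no test.

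Mutant and control were compared class by class, leaving out endothelial cells and fibroblasts because a library had fewer than 20 of them. Mutant here names the genotype of the mice. Deletion of Chd8 within a class, vascular or neural, was not measured. Of 66 tests of a member in 9 classes, 0 passed an adjusted p under 0.05 in edgeR's quasi-likelihood test, where 0% of all 109208 gene and class tests passed. At an unadjusted p under 0.05, 0 of the 66 and 170 of all tests (0.156%) passed, and DESeq2 called 0 members and 1 gene. These fits had no replicate term, so the shift between replicates counted as spread and made calls less likely. With the replicate number as a block in edgeR, 6 of the 66 and 4018 of all tests had an unadjusted p under 0.05. That fit called 1 of the 66 and 102 of all tests. Without the block, fitted log2 differences of the members ran from -0.97 to 1.26. The lowest p of the unblocked edgeR fit was 0.136 (adjusted p = 0.9997), for Cdkn1c in pericytes. Its levels there were 294 and 176 CPM in control and 150.1 and 176 CPM in mutant libraries. That difference was -0.53 (SE 0.31), with -0.96 within replicate 1 and -0.0040 within replicate 2 on the log2(CPM + 1) scale.

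Igf2 in pericytes had the largest fitted decrease, -0.97 (SE 0.82), and did not pass the test. The log2 ratio was 0.72 within replicate 1 and -1.46 within replicate 2, so the replicates went opposite ways. Without control 2 the difference was 0.98. In fibroblasts, which had too few cells for the test, Igf2 was lower in the mutant within both replicates, at 986 against 1715 and 1760.4 against 5950.5 CPM. Fibroblasts numbered 32, 25, 18 and 28 cells. Pericyte markers in the same fibroblast sums were also lower in the mutant within both replicates, at 1329 against 2664 and 3122 against 4945 CPM, and their part in the Igf2 difference was not tested. An edgeR fit with at least 5 cells and the replicate number as a block, chosen after seeing the data, called the fibroblast difference (-1.25, adjusted p = 0.0166). That fit called 104 of 6401 genes (1.62%) in fibroblasts. Without the block the edgeR fit gave -1.49 (adjusted p = 0.995) and did not call it.

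Meg3 in excitatory neurons stood at 528 and 209 CPM in control and 286 and 144.5 CPM in mutant libraries, a difference of -0.78 (SE 0.62) with -0.88 and -0.53 within the replicates. The genotypes overlapped, and the test was not passed. With the replicate number as a block the edgeR fit called the difference (-0.74, adjusted p = 0.0122). Without control 1 the unblocked difference was 0.047, so its direction turned. The share of the class in its Rbfox1 cluster, 45.2% and 11.5% in control and 28.4% and 9.52% in mutant libraries, was lower in the mutant within both replicates as was Meg3, and within that cluster Meg3 stood at 1077, 1050.0, 1850.2 and 1578 CPM. The part of this make-up in the class level was not tested. In pericytes the Meg3 difference was 0.54 (SE 0.48), and it was -0.17 without mutant 2. In excitatory precursors it was 1.26 (SE 0.95) with -0.96 and 2.58 within the replicates.

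Libraries of the 2 genotypes did not overlap in 6 of the 66 tests. Mutant libraries were higher for Ndn in committed OPCs (0.37), Plagl1 in OPCs (0.62) and Plagl1 in inhibitory neurons (0.50), against 8.29% of all tests in that direction. They were lower for Cdkn1c in pericytes, Igf2 in ependymal cells (-0.55) and Rian in committed OPCs (-0.28), against 7.04% of all tests. Both counts of members were within what the background gives. A test of whether the genotype difference itself differed between vascular and neural classes called 0 of the 10 members and 0 of 15476 genes in edgeR and 1 gene in DESeq2. At an unadjusted p under 0.05 there were 910 genes and 0 members, and the lowest was 0.0549 for H19 (log2 difference -1.30, adjusted p = 0.859). In the same edgeR fit the SE of Dlk1 (-1.30, SE 6267) and of Igf2 (-0.81, SE 5.05) only restates a test statistic near 0. How precisely these differences were estimated was not measured in another way. The lack of a call for these genes therefore carries no result.

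**Figure D5:**
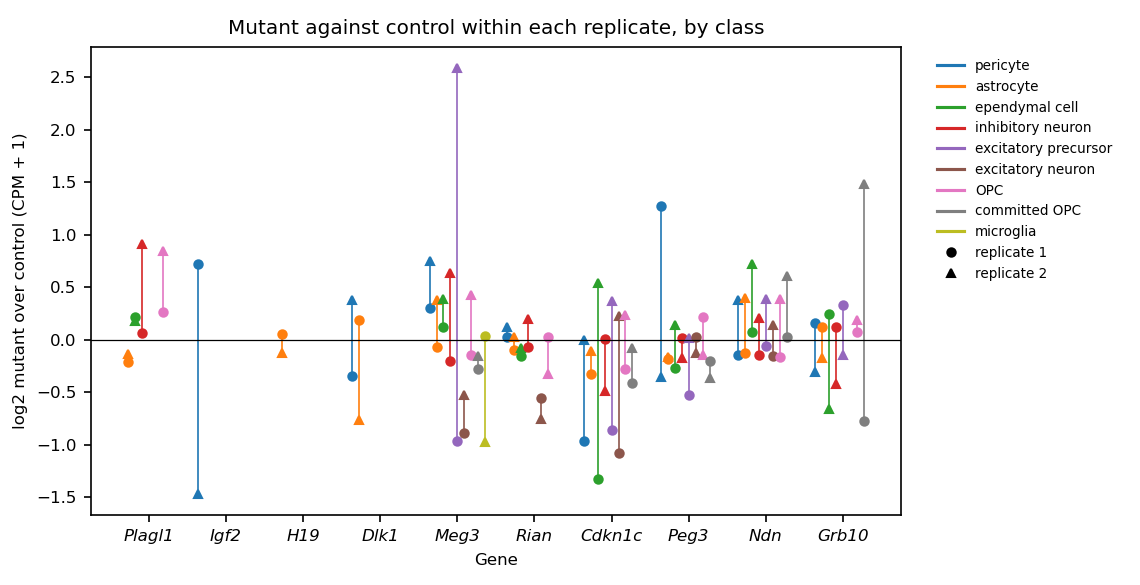
Log2 ratio of mutant over control CPM + 1 (y axis) for each gene (x axis), with circles for replicate 1 and triangles for replicate 2 of the same class joined by a line and coloured by class. The 54 pairs of gene and class with at least 100 UMIs are drawn, and many lines cross 0, such as Igf2 in pericytes from 0.72 to -1.46.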

How the data were processed

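Forebrain cells sorted for tdTomato were measured in 4 libraries of the 10x 3′ v3.1 chemistry, with an input of 5000 cells each. The authors deposited counts, the number of UMIs per gene and barcode, mapped to mm10; the file headers name software version 7.0.0 for replicate 1 and 5.0.1 for replicate 2, and the submitters' notes name Cell Ranger 3.0. Whether intronic reads were counted is not given in the sources used here. The study's limits were applied to barcodes (2000 to 40000 UMIs, 1000 or more genes, 10% or less mitochondrial RNA). Cells were clustered with scanpy 1.11.5 (2000 variable genes without the listed imprinted genes, 30 components, 15 neighbours, Leiden resolution 1), without removing doublets. Cluster borders moved with floating-point rounding, so processor settings were fixed. Of 31 clusters 30 were named from markers, which needed at least 3 markers detected, and 1 of 691 cells stayed unnamed. Deposited counts were summed per class and library and tested with edgeR 4.0.16 (quasi-likelihood, TMM, filterByExpr, Benjamini-Hochberg adjustment over all genes of a class or comparison) or, as an alternative, DESeq2 1.42.0. Genotype was tested in classes with at least 20 cells per library, and vascular against neural classes in sums of at least 5 cells. Scripts were tested on simulated data. Gene positions matched for 99.8% of genes. Named from other lists were the 8 imprinted genes and the 3 genes per pathway list with the highest class mean. For likeness the 3 nearest genes outside the members were taken, of which the first is given. Members and lists were chosen with earlier results of these data known.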

Additional observations from a re-analysis of the deposited data

Results flagged for a closer look

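Some members had signal in cells that none of the comparisons used. The choroid plexus cells, 25 in all and too few to compare, held Igf2 at 203 CPM over all their cells (110.1 to 441 CPM by library), above the highest neural class mean of 8.22 CPM. The same cells held Peg3 at 181 CPM, against a highest neural mean of 163 CPM, and Grb10 at 122 CPM, against 45.6 CPM. In the unnamed cluster of 691 cells, with Olig1, Egfr and Olig2 among its leading genes, Grb10 stood at 115 CPM (87.2 to 134 CPM by library), above the same 45.6 CPM. These 4 values were picked out because they exceed the neural classes, and no test was made on them.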

How the results depend on the processing

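With a mitochondrial limit of 5% the fibroblast class had under 5 cells in a library and was not compared, and 4 members were then highest in a vascular class and 4 were called higher there. Members called lower in the vascular classes numbered 1 at a clustering resolution of 2, 1 after removal of the highest Scrublet scores and 1 without the replicate block. The Plagl1 difference became -0.10 at the 5% limit and -0.39 with at least 20 cells per sum, and the Peg3 difference 0.19 after the Scrublet removal. Fibroblasts were absent at the 5% limit and endothelial cells after the Scrublet removal. The minimum of 20 cells left pericytes as the only vascular class. The cause of these changes was not tested. Leaving out 1 library gave 7 to 8 members called higher, 2 to 2 lower and 0 to 0 called for genotype.

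Same-numbered libraries share a number, and the labels do not say that they share a batch, although their deviations from the genotype means correlated at 0.35 to 0.92 over the classes. With the replicate block 102 gene and class tests (0.0934%) were called, of which 1 was of a member, Meg3 in excitatory neurons (-0.74, SE 0.17, edgeR adjusted p = 0.0122). With the block and at least 5 cells, an alternative chosen after seeing the data, 219 gene and class tests (0.178%) were called. Among the 81 tests of a member in a class, 3 were called. The calls besides Meg3 were Igf2 in endothelial cells (-3.46, edgeR adjusted p = 0.000689) and in fibroblasts (-1.25, adjusted p = 0.0166). In these classes that fit called 0.171% and 1.62% of genes. Without the block, edgeR called 0 of 123225 tests on the same sums. In endothelial control 1 all 24 Igf2 UMIs lay in 1 of 10 cells. Pericyte markers summed, mutant against control, to 196 against 160 and 492 against 3089 CPM in endothelial cells and to 1329 against 2664 and 3122 against 4945 CPM in fibroblasts, and their part was not tested. Without a filter on low counts 1 member was called, Igf2 in committed OPCs (-4.23, adjusted p = 0.000236), whose UMIs lay in 1 cell of control 2.

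Genotype differences turned sign when 1 library was left out. Igf2 in pericytes ran from -1.77 to 0.98, Meg3 in pericytes from -0.17 to 1.01, Meg3 in excitatory neurons from -1.38 to 0.047 and Meg3 in inhibitory neurons from -0.58 to 0.89. The filter of at least 10 counts in every sum left no member in the comparison of vascular and neural classes and was not run for the interaction. With 2 libraries per genotype and 10 to 68 endothelial or 18 to 32 fibroblast cells per library, how small a genotype difference could be detected was not tested.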
